A study of Mus musculus with 18 samples.

Results

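The comparison described here was between tail-tip fibroblasts of Pro/Pro;Cas9/+ mice and of +/+;Cas9/+ mice, both transduced with a guide against Lmna. It used 8 of the 18 RNA-seq libraries of the series: 4 Pro/Pro;Cas9/+ and 4 +/+;Cas9/+ libraries, each set made of 2 mice with gLmna-1 and gLmna-2. The members were chosen by genotype and guide as the labels give them, not by any measured value. The cells were primary fibroblasts from mice 2 months old, used at passage 5 and spinfected with a lentivirus that carries the guide and mCherry. More than 80% of the cells were mCherry-positive and they were neither sorted nor selected, so a library may also hold cells that received no guide. Both groups carry 1 copy of Cas9, so the Pro allele is what the labels set apart. Below they are called homozygous cells (Pro/Pro;Cas9/+) and wild-type cells (+/+;Cas9/+), and their mice are numbered 1 and 2. The third genotype, Pro/+; +/+, has 1 Pro allele and no Cas9, and 1 of its mouse names may stand for a pool. The third treatment was the control guide, gMock. These libraries enter only where they are named, except that the spread between the Pro/+; +/+ mice is part of the error of the main test. The 2 libraries of a mouse share its cells, so the mouse was the replicate, and a p-value rests on 2 mice against 2.

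Lmna encodes lamin A and lamin C, filaments that line the inner face of the nuclear envelope and are abundant in mesenchymal cells such as fibroblasts. Lamin C ends after exon 10, while lamin A runs on through exons 11 and 12 as prelamin A, whose farnesylated tail is cut off by the protease Zmpste24. In Hutchinson-Gilford progeria a single-base change in exon 11 opens a hidden splice donor. The message spliced there lacks the end of exon 11 and encodes progerin, a lamin A that keeps its farnesyl group.

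No difference in the level of the best-covered Lmna transcript was called, while the level of exon 11 was lower in every homozygous library. Levels are given in FPKM, fragments per unit of transcript length and sequencing depth, and in each list of 4 values the order is mouse 1 with gLmna-1, mouse 1 with gLmna-2, mouse 2 with gLmna-1 and mouse 2 with gLmna-2. The best-covered Lmna transcript had 249, 247, 217 and 310.0 FPKM in homozygous cells and 299, 333, 291 and 272 FPKM in wild-type cells (log2 difference -0.23, SE 0.10, adjusted p = 0.33). The ranges of the genotypes overlapped. This transcript stops at the lamin C end, so its level includes neither exon 11 nor the untranslated part of exon 12. Exon 11 had 38.2, 50.8, 35.2 and 47.6 FPKM in homozygous cells against 92.5, 92.3, 83.1 and 87.3 FPKM in wild-type cells, and here all 4 homozygous libraries lay below all 4 others.

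Relative to exons 4 to 9, which lamin A and lamin C share, exon 11 stood at 0.142, 0.191, 0.149 and 0.143 in homozygous cells and at 0.286, 0.256, 0.266 and 0.293 in wild-type cells. The mean ratio was 0.156 ± 0.0144 (SD over 2 mice) against 0.275 ± 0.00593, a log2 difference of -0.82. By exact permutation of the 4 mice (two-sided) p was 0.333, and a design of 2 against 2 can give none smaller. In the limma test of part use over all transcripts (each part against the median part of its transcript), exon 11 differed by -0.76 on the log2 scale (SE 0.14, adjusted p = 0.86). It ranked 102 by p among 86879 parts of 8248 genes, of which 0 (0%) passed after adjustment and 5053 had an unadjusted p under 0.05. The other 12 Lmna parts differed by between -0.21 and 0.13.

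The 3′ ends showed smaller differences. The untranslated part of exon 12, which lamin C lacks, stood at 0.243 ± 0.0408 of exons 4 to 9 in homozygous and at 0.291 ± 0.0117 in wild-type cells, with overlapping libraries. The lamin C end stood at 0.668 ± 0.0298 against 0.581 ± 0.0532, also overlapping. As a level, the untranslated part of exon 12 ranged from 56.2 to 76.6 FPKM in homozygous and from 84.5 to 103 FPKM in wild-type libraries. These levels did not overlap (log2 difference -0.51). The level of the lamin C end ranged from 138 to 235 and from 163 to 218 FPKM, with overlap. Set against exon 12 of the same message, exon 11 ranged from 0.554 to 0.752 in homozygous and from 0.891 to 1.02 in wild-type libraries, without overlap. Exon 11 values rest on 244 to 424 reads in homozygous and 546 to 730 reads in wild-type libraries. With gMock the ratio of exon 11 to exons 4 to 9 was 0.217 and 0.2 in homozygous and 0.396 and 0.415 in wild-type cells, so that the guide libraries lay below the gMock libraries of their genotype on both sides.

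**Figure D1:**
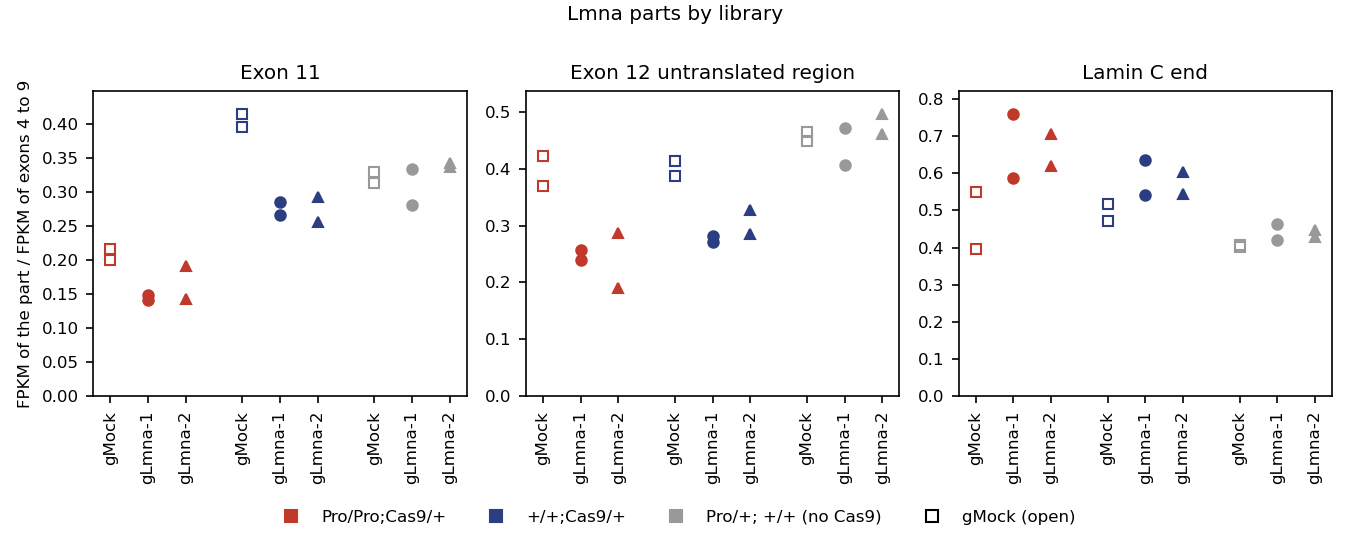
FPKM of 3 parts of Lmna divided by the FPKM of exons 4 to 9 (vertical axes, from 0), by guide (horizontal axes) and genotype (colour); each symbol is 1 library, open squares are gMock. For exon 11 the Pro/Pro;Cas9/+ guide libraries sit between 0.142 and 0.191 and the +/+;Cas9/+ guide libraries between 0.256 and 0.293.

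Beyond Lmna, homozygous cells had lower levels of the transcription factors Twist2, Prrx1 and Shox2, of the secreted signals Inhbb and Il7 and of the growth factor receptor Pdgfra. They had higher levels of the receptor Egfr, of the fibrillar collagen gene Col11a1 and of the macrophage receptor Mrc1. Of 12309 genes tested, 75 (0.609%) differed at an adjusted p under 0.05 by limma, 26 (0.211%) higher and 49 (0.398%) lower in homozygous cells. In 64 of the 75, the 4 libraries of one genotype all lay above the 4 of the other, while 11.4% of all tested genes separated in this way. The 75 were chosen by a test on these same libraries, so a larger share among them was in part built in. An unadjusted p under 0.05 was reached by 2031 genes (16.5%), the share against which such counts in the lists are to be read. Differences are on the log2(FPKM + 1) scale, which understates the change of low genes. Among the called genes they ran from 0.56 to 2.38 upward and from 0.63 to 2.78 downward in size. Of the 75, 4 (Cd300lf, Cd33, Foxd2 and Tnfaip6) were under 1 FPKM in all 4 wild-type libraries, so that they passed the filter on low values (1 FPKM in 2 of the 8 libraries) only through the homozygous libraries and had to differ.

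The number of called genes depended on single mice and libraries. It was 0 without any 1 of the 4 mice and 0 without the gLmna-1 library of homozygous mouse 2. It was 24 without the gLmna-1 library of homozygous mouse 1, 330 without the gLmna-2 library of mouse 2, 18 without the gLmna-1 library of wild-type mouse 1 and 40 without the gLmna-2 library of wild-type mouse 2. Without Pro/+; +/+ mouse 2, which lends only its spread, it was 156. None of the 75 changed sign in any alternative setting in which it was tested, which were 25 settings, or 24 for 6 of the genes. The alternatives reuse the libraries on which the 75 were chosen, so keeping the sign was in part built in.

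Whole-library checks were as follows. The 8 libraries hold 23523704 to 33016178 reads. Fibroblast markers differed widely in level. Vim ranged from 3410.0 to 4638 FPKM in homozygous and from 4677 to 5091 FPKM in wild-type cells. Col1a1 ranged from 1120 to 2900 and from 1130 to 1880 FPKM. Fap, of the same list, ranged only from 1.8 to 6.15 and from 0.407 to 1.19 FPKM. Markers of keratinocytes, endothelium and skeletal muscle were summed at no more than 14.2, 3.10 and 2.56 FPKM in any of the 8, and Krt14 and Myod1 were at 0. Other lists stood higher. Pigment and Schwann cell markers were summed at 12.6 to 45.1 FPKM in homozygous and 10.5 to 22.5 FPKM in wild-type libraries. Adipocyte markers were summed at 43.0 to 76.0 and 33.5 to 38.8 FPKM. Xist was 16.3 to 26.2 FPKM and Y-linked genes at most 0.0213 FPKM in the 8 libraries, whereas Pro/+; +/+ mouse 2 expressed Y-linked genes (Eif2s3y at least 37.3 FPKM) and almost no Xist.

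Among transcription factors of limb and skin mesenchyme, 3 were lower in homozygous cells. Twist2 (chr1:91801461-91848034), a basic helix-loop-helix factor of the dermis, had 10.4, 11.9, 8.53 and 16.9 FPKM in homozygous and 29.2, 42.4, 28.8 and 43.1 FPKM in wild-type cells (log2 difference -1.52, SE 0.08, adjusted p = 0.015). The homeobox factor Prrx1 (chr1:163245119-163313650), known from limb bud mesenchyme, had 17.9, 42.5, 15.8 and 43.5 against 59.1, 77.5, 48.6 and 68.4 FPKM (log2 difference -1.18, SE 0.10, adjusted p = 0.023). Shox2 (chr3:66971723-66978811), a short stature homeobox gene, had 2.53, 3.31, 1.601 and 2.905 against 9.78, 9.65, 11.9 and 11.2 FPKM (log2 difference -1.72, SE 0.14, adjusted p = 0.023). In each of the 3 the highest homozygous library was below the lowest wild-type library. These were the only calls among the 22 tested of 33 position and patterning genes, 0 higher and 3 lower (0.211% and 0.398% of all tested genes). The list as a whole did not lie low: its median was 0.27 (all tested genes 0.02) and 15 of 22 differences were positive. Hoxd8 passed the filter on low values only through the homozygous libraries. Without it 14 of 21 were positive, with a median of 0.25. Posterior Hox genes lay on both sides. Hoxa9 (3.48 ± 0.0795 against 1.44 ± 0.0292 FPKM, SD over 2 mice, log2 difference 0.88, adjusted p = 0.057) and Hoxa10 (14.2 ± 0.633 against 8.23 ± 0.237 FPKM, log2 difference 0.72, adjusted p = 0.074) were not called, although all 4 libraries stood higher. Hoxc13 (13.7 ± 0.428 against 18.3 ± 1.36 FPKM, log2 difference -0.39, adjusted p = 0.12) was lower in all 4 libraries and not called. Hoxb13 (72.99 ± 28.6 against 118 ± 35.4 FPKM, log2 difference -0.73, adjusted p = 0.4) was not called either, and its libraries overlapped.

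Other transcriptional regulators were called in both directions. Id4 (chr13:48261427-48264036), a dominant-negative partner of helix-loop-helix factors, had 7.398, 8.46, 4.202 and 7.04 FPKM in homozygous and 32.9, 31.02, 18.2 and 36.8 FPKM in wild-type cells (log2 difference -1.97, SE 0.18, adjusted p = 0.029). Irx3, an Iroquois homeobox factor, averaged 2.77 ± 0.5695 against 6.37 ± 0.813 FPKM (log2 difference -1.04, SE 0.12, adjusted p = 0.044). Irf1, a transcription factor induced by interferon, averaged 12.2 ± 0.171 against 19.6 ± 0.176 FPKM (log2 difference -0.64, SE 0.07, adjusted p = 0.04). On the higher side stood Tox, an HMG-box factor, with 10.3, 6.33, 12.3 and 5.9 against 2.36, 1.57, 4.16 and 1.87 FPKM (log2 difference 1.47, SE 0.16, adjusted p = 0.04), and Foxd2, a forkhead factor, with 1.898 ± 0.0267 against 0.647 ± 0.0766 FPKM (log2 difference 0.81, SE 0.10, adjusted p = 0.045). In all 5 of these genes the libraries of the genotypes did not overlap, but Foxd2 passed the filter on low values only through the homozygous libraries.

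Among secreted signals, Inhbb and Il7 were lower. Inhbb, the beta-B subunit of activins and inhibins, had 17.1, 33.6, 14.6 and 21.2 FPKM in homozygous and 62.4, 71.7, 71.4 and 72.9 FPKM in wild-type cells (log2 difference -1.71, SE 0.17, adjusted p = 0.032), without overlap. Nog, which binds and blocks bone morphogenetic proteins, had a log2 difference of -0.89 (adjusted p = 0.057) and was not called. In the Wnt list 0 of 27 tested genes passed by limma and 12 had an unadjusted p under 0.05 (16.5% of all tested genes did). The antagonist Dkk2 came nearest with 40.5 ± 14.6 against 142 ± 4.097 FPKM (log2 difference -1.82, SE 0.25, adjusted p = 0.054). Il7, a lymphocyte growth factor, averaged 3.14 ± 0.679 against 8.57 ± 0.514 FPKM (log2 difference -1.34, SE 0.12, adjusted p = 0.024).

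The ligands Efna1 and Artn were higher. Efna1 (chr3:89271730-89279645), a membrane-bound ligand of Eph receptors, had 11.7, 6.44, 7.69 and 9.57 FPKM in homozygous and 2.797, 4.03, 4.02 and 3.46 FPKM in wild-type cells (log2 difference 1.09, SE 0.09, adjusted p = 0.023). Artn, a ligand of the GDNF family, averaged 7.69 ± 0.324 against 3.05 ± 0.0689 FPKM (log2 difference 0.99, SE 0.12, adjusted p = 0.045), with overlapping libraries. On chromosome 3 Efna1 was the only called gene among the 122 tested within 5 Mb of Lmna (0.609% of all tested genes were called). The median difference of the 122 was 0.01.

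Growth factor receptors moved in both directions. Egfr (chr11:16752203-16887658), the epidermal growth factor receptor, was higher with little spread within a genotype, at 12.99, 13.6, 12.8 and 12.8 FPKM in homozygous and 5.41, 5.39, 4.96 and 5.66 FPKM in wild-type cells (log2 difference 1.15, SE 0.07, adjusted p = 0.015). The platelet-derived growth factor receptor Pdgfra (chr5:75152251-75175150), a marker of fibroblasts, was lower, with 6.83, 11.7, 9.79 and 9.03 against 18.1, 23.1, 21.9 and 20.2 FPKM (log2 difference -1.09, SE 0.13, adjusted p = 0.044). Its relative Pdgfrb was not called (81.99 ± 5.61 against 117 ± 9.01 FPKM, log2 difference -0.51, adjusted p = 0.092). F2r, the thrombin receptor, was lower at 50.5 ± 4.25 against 103 ± 2.91 FPKM (log2 difference -1.02, SE 0.13, adjusted p = 0.045).

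Pdgfra was 1 of 12 fibroblast markers and the only one called (0.398% of all tested genes were called lower). In 6 of the 12 all homozygous libraries were lower and in 2 all were higher, against 5.44% and 5.95% of all tested genes. Thy1, a surface glycoprotein of fibroblasts, had 87.6, 158, 33.6 and 85.6 FPKM in homozygous and 462, 547, 353 and 404 FPKM in wild-type cells (log2 difference -2.44, SE 0.42, adjusted p = 0.066), a wide gap that did not pass. Ly6a, the surface antigen Sca-1, was called lower at 326 ± 17.8 against 716 ± 89.5 FPKM (log2 difference -1.14, SE 0.13, adjusted p = 0.044), and so was the related Ly6c1 at 54.6 ± 6.98 against 133 ± 8.79 FPKM (log2 difference -1.29, SE 0.10, adjusted p = 0.02). In bulk RNA a smaller share of cells of a type and less RNA per cell cannot be told apart.

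**Figure D2:**
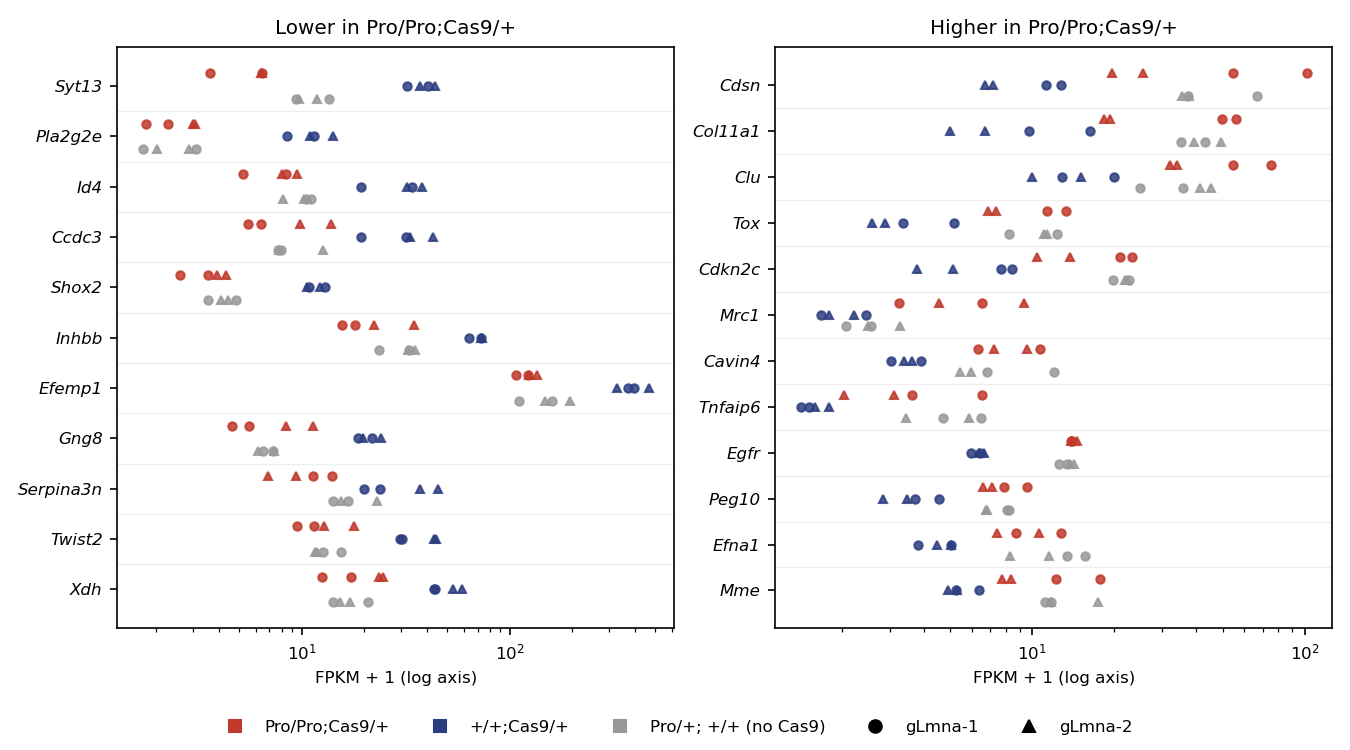
FPKM + 1 of 11 genes called lower (left) and 12 called higher (right), from those with the largest differences (log axes), 1 symbol per library, coloured by genotype and shaped by guide; Pro/+; +/+ libraries are shown in grey. In every gene drawn the 4 Pro/Pro;Cas9/+ symbols stand apart from the 4 +/+;Cas9/+ symbols, because only such genes were picked. Tnfaip6 passed the filter on low values only through the Pro/Pro;Cas9/+ libraries.

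The largest called drop was in Syt13 (chr2:92915101-92956051), a synaptotagmin of membrane traffic. It had 5.43, 5.45, 2.62 and 5.34 FPKM in homozygous and 39.6, 36.03, 31.1 and 42.5 FPKM in wild-type cells (log2 difference -2.78, SE 0.19, adjusted p = 0.015). The secreted phospholipase gene Pla2g2e had 1.28, 2.08, 0.777 and 1.99 against 7.46, 9.98, 10.5 and 13.2 FPKM (log2 difference -2.17, SE 0.26, adjusted p = 0.044). Gng8, a G protein gamma subunit, had 4.56, 7.36, 3.63 and 10.3 against 20.8, 22.98, 17.6 and 18.8 FPKM (log2 difference -1.58, SE 0.10, adjusted p = 0.015). None of the 3 overlapped between genotypes. The protease inhibitor Serpina3n was lower too, with 13.1, 8.35, 10.3 and 5.89 against 22.9, 44.2, 19.01 and 36.2 FPKM (log2 difference -1.57, SE 0.19, adjusted p = 0.045). Ccdc3 averaged 7.86 ± 1.13 against 30.7 ± 0.923 FPKM (log2 difference -1.88, SE 0.14, adjusted p = 0.023).

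Metabolic and membrane genes among the lower calls included Xdh, the enzyme that makes uric acid in purine breakdown, at 18.5 ± 2.01 against 48.8 ± 2.203 FPKM (log2 difference -1.39, SE 0.15, adjusted p = 0.039). Gfpt2, which makes glucosamine 6-phosphate, averaged 4.93 ± 0.258 against 12.2 ± 0.969 FPKM (log2 difference -1.17, SE 0.14, adjusted p = 0.044). Gsdmd, the pore-forming gasdermin of pyroptosis, averaged 8.65 ± 0.0427 against 24.3 ± 1.804 FPKM (log2 difference -1.39, SE 0.12, adjusted p = 0.028). Emp1, an epithelial membrane protein, averaged 279 ± 37.8 against 577 ± 2.19 FPKM (log2 difference -1.15, SE 0.10, adjusted p = 0.024). Ass1, argininosuccinate synthase, averaged 25.9 ± 6.05 against 64.7 ± 5.48 FPKM (log2 difference -1.46, SE 0.10, adjusted p = 0.015), but it shares its position with the gene model Gm5424 and its reads may be split between them. Its libraries also overlapped.

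Matrix genes split between those lower and those higher. Efemp1 (chr11:28853205-28926743), the fibulin-3 gene, had 122, 134, 106 and 122 FPKM in homozygous and 371, 464, 396 and 325 FPKM in wild-type cells (log2 difference -1.67, SE 0.17, adjusted p = 0.038). It was the only call among 33 tested genes of elastic fibres, proteoglycans and adhesive glycoproteins (0.398% of all tested genes were called lower). Of the 33, 9 had all homozygous libraries lower and 5 all higher (5.44% and 5.95% of all tested genes). Among the members that were not called, dermatopontin, Dpt, stood at 20.2 ± 6.79 against 136 ± 64.6 FPKM (log2 difference -2.56, SE 0.55, adjusted p = 0.096) and tenascin C, Tnc, at 188 ± 7.61 against 443 ± 6.62 FPKM (log2 difference -1.30, SE 0.24, adjusted p = 0.072). The heparan sulfate proteoglycan Gpc1 was called lower at 139 ± 1.697 against 234 ± 6.07 FPKM (log2 difference -0.78, SE 0.08, adjusted p = 0.034).

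On the higher side, Col11a1 (chr3:114030540-114220756), a collagen XI chain of cartilage fibrils, had 54.9, 18.2, 48.6 and 17.4 FPKM in homozygous and 8.696, 4.005, 15.2 and 5.73 FPKM in wild-type cells (log2 difference 1.88, SE 0.21, adjusted p = 0.043). It was the only call among 34 tested collagen and fibril enzyme genes (0.211% of all tested genes were called higher). The median of the 34 was 0.22. Without Col8a2, which passed the filter on low values only through the homozygous libraries, the median was 0.18. The lysyl hydroxylase Plod2 had 85.7 ± 2.45 against 35.2 ± 9.12 FPKM (log2 difference 1.27, SE 0.20, adjusted p = 0.057) and the lysyl oxidase Loxl3 78.8 ± 16.6 against 177 ± 27.5 FPKM (log2 difference -1.24, SE 0.16, adjusted p = 0.05 after rounding), and neither was called. Sulf1, which trims sulfate from heparan chains, was higher at 46.5 ± 1.47 against 26.98 ± 1.01 FPKM (log2 difference 0.77, SE 0.07, adjusted p = 0.028). Chsy1, a chondroitin sulfate synthase, averaged 17.6 ± 0.0331 against 11.6 ± 0.0827 FPKM (log2 difference 0.56, SE 0.07, adjusted p = 0.044). Tnfaip6, which binds hyaluronan, had 5.52, 1.04, 2.62 and 2.104 against 0.4103, 0.796, 0.513 and 0.587 FPKM (log2 difference 1.15, SE 0.11, adjusted p = 0.029), and is 1 of the genes that passed the filter only through the homozygous libraries.

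Col11a1 was also the only call among the 7 tested of 12 cartilage and bone markers (0.211% of all tested genes were called higher). Of these 7, Ibsp, bone sialoprotein, was under 1 FPKM in all wild-type libraries and entered only through the homozygous ones. Among the other 6, 5 differences were positive and the median was 1.63. Runx2 ranged from 8.28 to 12.6 FPKM in homozygous and from 8.31 to 12.4 FPKM in wild-type cells. Sox9 ranged from 3.77 to 20.6 against 2.54 to 9.88 FPKM, with overlapping libraries. Alpl, the alkaline phosphatase of mineralizing matrix, had 12.6, 9.49, 12.4 and 4.81 FPKM in homozygous and 2.23, 1.18, 1.87 and 4.08 FPKM in wild-type cells (log2 difference 1.69, SE 0.27, adjusted p = 0.057). Col2a1, the main collagen of cartilage, had 142, 10.2, 402 and 208 against 3.904, 2.18, 12.4 and 12.4 FPKM (log2 difference 3.89, SE 1.15, adjusted p = 0.18). It spread widely between the homozygous libraries, of which the gLmna-2 library of mouse 1 fell inside the wild-type range. Outside these 12 markers, Spp1, osteopontin, had 4702, 5184, 6618 and 4769 against 2733, 1987, 1870.0 and 1327 FPKM (log2 difference 1.46, SE 0.45, adjusted p = 0.19). It was higher in all 4 libraries but not called. Sp7, Bglap, Acan, Matn3 and Cnmd did not pass the filter on low values.

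**Figure D3:**
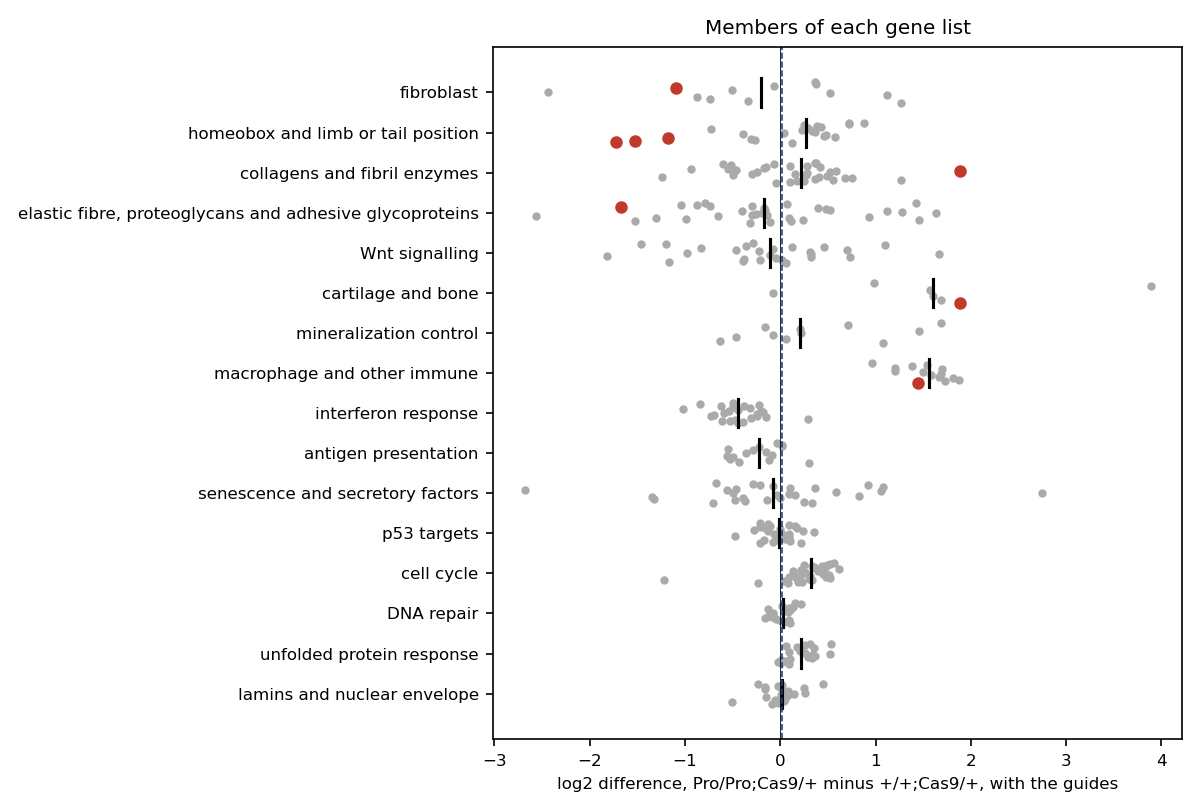
Log2 differences (Pro/Pro;Cas9/+ minus +/+;Cas9/+, with the guides) of the tested members of 16 gene lists; red points are called, grey points are not, black bars are list medians and the dashed line is the median of all tested genes, 0.02. The macrophage list has a median of 1.56 and the interferon list one of -0.45.

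Adhesion, membrane and chaperone genes were among the further rises. Cdsn, corneodesmosin, an adhesion protein known from the cornified epidermis, had 101, 18.7, 53.6 and 24.5 FPKM in homozygous and 11.8, 6.18, 10.2 and 5.71 FPKM in wild-type cells (log2 difference 2.16, SE 0.17, adjusted p = 0.023). Of 8 keratinocyte markers 2 passed the filter on low values and 0 were called, and Krt5 and Krt14 were at or near 0 in both genotypes. Other genes of the cornified layer, looked up after their values were seen, were expressed and not called. Crct1 had 3.15, 19.1, 2.81 and 81.8 FPKM in homozygous and 11.4, 15.1, 12.4 and 10.7 FPKM in wild-type cells, and Lce1g had 0.953, 7.12, 1.43 and 73.95 against 4.35, 14.6, 9.47 and 33.4 FPKM. Ivl, involucrin, had 0.477, 3.15, 0.393 and 13.3 against 1.201, 5.16, 0.725 and 3.94 FPKM. All 3 were highest in the gLmna-2 library of homozygous mouse 2, whereas Cdsn was not, and their part in the Cdsn difference was not tested. Clu, the secreted chaperone clusterin, had 53.4, 30.9, 74.3 and 32.99 against 11.8, 14.1, 18.9 and 8.95 FPKM (log2 difference 1.71, SE 0.12, adjusted p = 0.016). Mme, the membrane protease neprilysin, had 11.2, 7.37, 16.6 and 6.75 against 4.26, 4.28, 5.35 and 3.895 FPKM (log2 difference 1.004, SE 0.12, adjusted p = 0.044). Cavin4, a caveola coat protein known from muscle, had 9.63, 6.21, 5.32 and 8.54 against 2.02, 2.62, 2.895 and 2.38 FPKM (log2 difference 1.25, SE 0.14, adjusted p = 0.044), while Myod1 was at 0 and Myog at most 0.0291 FPKM. For Cdsn, Clu and Mme both gLmna-1 libraries of homozygous cells were above both gLmna-2 libraries.

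Macrophage genes stood higher in homozygous cells, although Mrc1 alone of the list passed the test (0.211% of all tested genes were called higher). Mrc1 (chr2:14229414-14332023), the mannose receptor CD206, had 2.25, 8.31, 5.54 and 3.54 FPKM in homozygous and 1.45, 0.787, 0.6705 and 1.22 FPKM in wild-type cells (log2 difference 1.45, SE 0.14, adjusted p = 0.034). Among the 14 tested macrophage and other immune markers all differences were positive, with a median of 1.56, and in 11 all homozygous libraries were higher (5.95% of all tested genes). Ptprc, the leukocyte antigen CD45, passed the filter only through the homozygous libraries, and without it the median of the other 13 was 1.58 and 10 were higher in all libraries. Outside that list, the myeloid receptors Cd300lf (1.66 ± 0.117 against 0.243 ± 0.0275 FPKM, log2 difference 1.05, adjusted p = 0.044) and Cd33 (1.63 ± 0.0226 against 0.352 ± 0.0585 FPKM, log2 difference 0.90, adjusted p = 0.045) were called higher, but both passed the filter only through the homozygous libraries.

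Summed over all 16 markers of that list, the level was 507, 1683, 1294 and 883 FPKM in homozygous and 453, 434, 176 and 238 FPKM in wild-type cells. Homozygous mouse 1 with gLmna-1 was the lowest of its genotype and lay close to the highest wild-type libraries. The lysozyme gene Lyz2, which made up most of the sum, had 358, 1224, 918 and 620.3 against 343, 324, 121 and 165 FPKM (log2 difference 1.70, SE 0.65, adjusted p = 0.28). Fcer1g, a signalling chain of Fc receptors, had 25.2, 66.2, 52.6 and 34.6 against 13.6, 13.1, 7.44 and 9.53 FPKM (log2 difference 1.88, SE 0.38, adjusted p = 0.086). The T cell marker Cd3e was at 0. The part of these cells in the other differences was not tested.

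**Figure D4:**
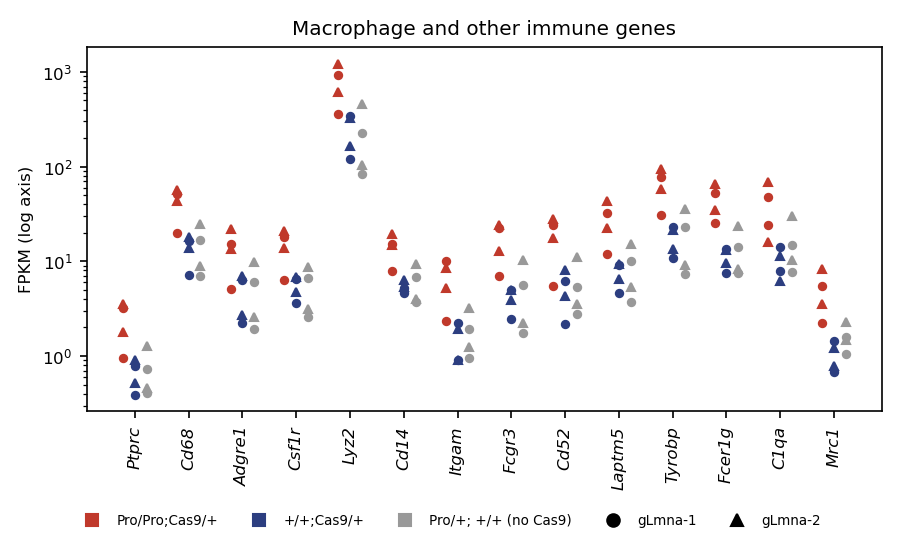
FPKM of the 14 tested macrophage and other immune genes (log axis), 1 symbol per library, coloured by genotype and shaped by guide. Red symbols (Pro/Pro;Cas9/+) lie above the blue ones (+/+;Cas9/+) in 11 of 14 genes, and Pro/+; +/+ libraries are shown in grey.

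Interferon-response genes leaned the other way without a call. By limma 0 of 25 tested genes passed and 9 had an unadjusted p under 0.05, against 16.5% of all tested genes. Only Cxcl10 had a positive difference (0.29), and the median was -0.45. Iigp1 passed the filter on low values only through the wild-type libraries, and the median of the other 24 was -0.447. Oasl2, of the oligoadenylate synthetase family, had the most negative value, with 0.626, 3.56, 0.703 and 1.35 FPKM in homozygous and 2.58, 4.71, 4.97 and 3.11 FPKM in wild-type cells (log2 difference -1.02, SE 0.40, adjusted p = 0.29). Its libraries overlapped, and the gLmna-2 library of homozygous mouse 1 lay inside the wild-type range. The list's median was -0.68 with gLmna-1 and -0.004 with gLmna-2, and it was -1.91 with gMock. In the antigen presentation list 0 of 15 passed and 6 had an unadjusted p under 0.05 (16.5% of all tested genes, median -0.22).

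Cell cycle control gave 1 called inhibitor. Cdkn2c (chr4:109660876-109665372), the p18 inhibitor of cyclin D kinases, had 22.3, 12.8, 19.9 and 9.43 FPKM in homozygous and 6.68, 2.78, 7.45 and 4.13 FPKM in wild-type cells (log2 difference 1.45, SE 0.14, adjusted p = 0.03), without overlap. Cdkn2a, which encodes p16 and p19, was not called (127 ± 29.2 against 200.1 ± 9.04 FPKM, log2 difference -0.67, adjusted p = 0.12), although all 4 libraries were lower. Of 34 cell cycle genes 0 passed by limma and 16 had an unadjusted p under 0.05, against 16.5% of all tested genes. Of their differences 32 were positive, with a median of 0.32 (0.12 with gLmna-1 and 0.503 with gLmna-2), and in 0 of the 34 did the genotypes separate. Summed over the list, the highest of the 8 libraries was a wild-type one, mouse 1 with gLmna-1, at 389 FPKM, while the others ranged from 208 to 308 FPKM. The most negative difference was that of Rrm2, a ribonucleotide reductase subunit, with 29.5, 40.95, 23.7 and 78.96 against 109, 93.4, 63.2 and 109.8 FPKM (log2 difference -1.22, SE 0.20, adjusted p = 0.063). The mitotic kinase Plk1 had 5.73, 3.61, 5.87 and 3.62 against 6.42, 0.896, 2.92 and 2.26 FPKM (log2 difference 0.61, SE 0.09, adjusted p = 0.056).

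Stress lists held no call. Of 28 p53 targets and 20 DNA repair genes 0 passed by limma and 0 had an unadjusted p under 0.05, below the 16.5% of all tested genes, with medians of -0.01 and 0.03. Among 29 senescence and secretory genes 0 passed and 11 had an unadjusted p under 0.05, again against 16.5%. The chemokine Ccl8 had 42.2, 98.3, 20.6 and 67.7 FPKM in homozygous and 248, 668, 165 and 388 FPKM in wild-type cells (log2 difference -2.68, SE 0.35, adjusted p = 0.052). Of 22 genes of the unfolded protein response 0 passed, 8 had an unadjusted p under 0.05 (16.5% of all tested genes) and 21 were positive, with a median of 0.43 with gLmna-1 and 0.004 with gLmna-2. Of 23 genes of the lamina and nuclear envelope 0 passed and 4 had an unadjusted p under 0.05, a share near the 16.5% of all tested genes (median 0.01).

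All 75 called genes had the same sign with gLmna-1 and with gLmna-2, which follows in part from choosing them on the mean of both. The median difference of the 49 lower genes was -1.33 with gLmna-1 and -0.89 with gLmna-2, and that of the 26 higher genes was 1.13 and 1.01. The difference was smaller in size with gLmna-2 in 40 of 49 and 17 of 26, against 58.5% of all tested genes. Emp1 differed by -1.73 with gLmna-1 and by -0.57 with gLmna-2 and Mest by 3.35 and 1.42, while Twist2 (-1.52 and -1.53) and Cdkn2c (1.45 and 1.44) were close with both guides. Serpina3n went against this order, with -0.80 and -2.35.

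A test of the guide difference itself, gLmna-2 minus gLmna-1 within a mouse, between genotypes called 1 of 12309 genes by limma (0.00812%), with 904 at an unadjusted p under 0.05. That gene was Mmp13, collagenase 3. It had 373, 164, 781 and 365 FPKM in homozygous and 33.2, 75.2, 36.2 and 87.6 FPKM in wild-type cells, so gLmna-2 was the lower guide in both homozygous mice and the higher one in both wild-type mice. The guide difference differed by -2.34 (adjusted p = 0.028), and no gene was called under any of the 8 alternatives run. Its mean genotype difference was 2.75 (adjusted p = 0.057), not called. In Pro/+; +/+ cells, which carry no Cas9, gLmna-2 was the higher guide for Mmp13 in both mice.

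With gMock, in other libraries of the same mice, all 75 genes had the sign they had with the guides. The median was -1.16 for the 49 lower genes and 0.95 for the 26 higher genes. Of the lower genes 12 also passed in the gMock comparison, where 48 of 12309 (0.39%) did, and of the higher genes 0. Syt13 differed by -3.22 with gMock, Twist2 by -2.002, Egfr by 0.96 and Col11a1 by 2.21. The difference between the guide and gMock comparisons was tested within mice. By limma it called 0 of 12309 genes (0%), with 430 at an unadjusted p under 0.05 and a smallest adjusted p of 0.19.

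**Figure D5:**
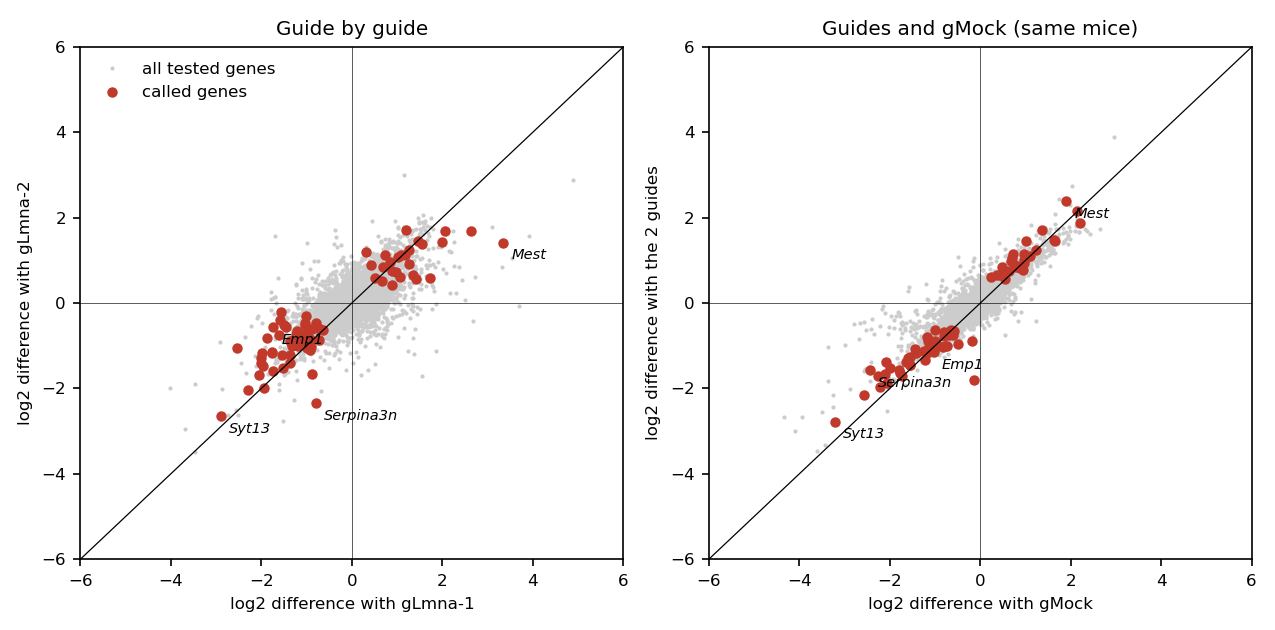
Log2 difference between Pro/Pro;Cas9/+ and +/+;Cas9/+ for each tested gene, with gLmna-2 against gLmna-1 (left) and with both guides against gMock (right); red points are the 75 called genes and the line marks equal values. All red points have the same sign on both axes of both panels.

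Pro/+; +/+ cells, which carry no Cas9, are given beside the 2 groups as levels only, since any difference from +/+;Cas9/+ would share its libraries. With the same guides Twist2 had 11.6, 10.8, 14.4 and 10.6 FPKM, Syt13 8.41, 8.71, 12.5 and 10.9 FPKM and Egfr 12.4, 12.8, 11.6 and 13.3 FPKM in the 4 Pro/+; +/+ libraries. These levels are close to those of homozygous cells for Twist2 and Egfr. Col11a1 averaged 40.5 FPKM in Pro/+; +/+ cells, beside 34.8 in homozygous and 8.41 in wild-type cells. Pdgfra averaged 15.5 FPKM, beside 9.32 and 20.8. The myeloid genes Mrc1 and Cd33 stood nearer the wild-type level than the homozygous one. Mrc1 averaged 1.599 FPKM in Pro/+; +/+ cells, beside 4.91 in homozygous and 1.03 in wild-type cells. Cd33 averaged 0.313 FPKM beside 1.63 and 0.352. Other macrophage markers spanned wider ranges in Pro/+; +/+ libraries. Lyz2 ran from 84.2 to 460 FPKM there and from 121 to 343 FPKM in wild-type libraries. Fcer1g ran from 7.55 to 23.5 FPKM and from 7.44 to 13.6 FPKM.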

How the data were processed

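Total RNA of the fibroblast cultures was sequenced. Per the file headers, the authors made 1 table of FPKM values with HOMER, counting exons of mm10 RefSeq transcripts and keeping their parts apart, with part lengths. Per the submitters' processing notes, STAR 2.4.0k and FastQC 0.11.2 were used, and strand handling is not given in the sources used here. Of 24 library columns, 6 match no labelled sample and were not used. Parts were combined per transcript by length (2531 parts shorter than 1 base left out), and the transcript with the highest level was kept per symbol, leaving 24445 symbols. Of 36795 transcripts 36474 were named from RefSeq and 194 from GENCODE. Values were whole multiples of 1 read within 0.05 in 100% of those tested, which gave the read totals.

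Genes that reached 1 FPKM in 2 or more of the 8 libraries were tested with limma 3.58.1 (R 4.3.3, trended) on log2(FPKM + 1), with 1 value per mouse (the mean of its guide libraries), 6 mice in 3 genotypes, 3 residual degrees of freedom and Benjamini-Hochberg adjustment at 0.05. Part use was tested where a part had 50 bases or more and reached 5 FPKM in 4 or more libraries. The fit was tested on simulated data with known changes. Nothing but the mouse names says how the mice were related, so p-values measure only the spread between these mice.

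The text names Lmna, the 12 genes with the largest called change in each direction (at least 2 FPKM, groups not overlapping, no gene models) and members of the 20 pathway and 9 marker lists with the smallest p. Other genes were chosen after their values were seen, and some items are not reported here. The comparison, members and lists were all chosen with earlier results of these data known. Alternatives changed the pseudocount, filter, scaling, transcript, fitted mice, guide and left-out libraries.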

Additional observations from a re-analysis of the deposited data

Results flagged for a closer look

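The guide difference of Mmp13 (gLmna-2 minus gLmna-1, within a mouse) differed between genotypes, by -2.34 on the log2 scale in Pro/Pro;Cas9/+ relative to +/+;Cas9/+ mice (limma, adjusted p = 0.028). It was negative in both Pro/Pro;Cas9/+ mice and positive in both +/+;Cas9/+ mice. It was also positive in both Pro/+; +/+ mice, which carry no Cas9, with 353.5 and 204.2 FPKM with gLmna-1 and 526.0 and 305.1 FPKM with gLmna-2. With gMock, Mmp13 stood at 177 and 603 FPKM in Pro/Pro;Cas9/+ and at 78.7 and 79.2 FPKM in +/+;Cas9/+ cells. Its cause was not tested.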

How the results depend on the processing

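The genotype difference with the guides called 75 genes, and pseudocounts of 0.1 and 0.5, a filter of 5 FPKM, median-ratio scaling, voom on recovered reads and the longest transcript gave 61 to 79, of which 45 to 74 were among the 75. It was 29 with no filter on low values (17 shared), 153 with only the 4 mice compared (68 shared), 770 with the 8 libraries and the mouse as a random block (69 shared, fitted correlation within mice -0.058), 307 with gLmna-1 only (57 shared) and 1 with gLmna-2 only (1 shared). Leaving out 1 mouse or library gave 0 to 330. The alternative without Pro/+; +/+ mouse 2 was chosen after seeing the data. The cause of these changes was not tested. The labels give no replicate numbers, so no pairing of mice across genotypes is known. A replicate block by the form of the library name (sample title with or without an S number) called 5 genes (4 shared). The deviations of the mice it joins correlated by -0.222 between homozygous and wild-type mice. All library columns used here carry an S number, so this form marks no known replicate or batch. The guide difference between genotypes called 1 gene and 0 with a pseudocount of 0.1, with no filter, with only the 4 mice compared, with the replicate block and without any 1 mouse. The test against gMock called 0 genes throughout. The exon 11 part-use difference was -0.85 to -0.66 without 1 mouse, and its adjusted p stayed above 0.05.

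Each of the 75 called genes passed in 6 to 19 of the alternatives in which it was tested (25, or 24 for 6 genes), and 0 changed sign in them. Keeping the sign was in part built in, because the alternatives reuse the libraries on which the 75 were chosen. Among the other named genes, the following changed sign. With gLmna-1 only, Ckap2 became -0.059, Des -0.125 and Ccl2 0.51. With gLmna-2 only, Rrm2b became 0.007, Ifit3 0.003 and Il6 -0.022. Des became -0.029 with a pseudocount of 0.1. Leaving out 1 mouse or library gave Ckap2 -0.111 to 0.538, Txnrd1 -0.591 to 0.036, Des -0.171 to 0.26, Sox10 -0.034 to 1.36, Erbb3 -0.03 to 0.724 and Pparg -0.434 to 0.332. Exon 11 values rest on 244 to 730 reads a library.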

Other observations

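Imprinted genes, expressed from 1 parental copy, were looked at after 2 of them, Mest and Peg10, appeared among the higher calls, so the list is a description with no test. Of 16 tested members 2 were called higher, the same 2 that prompted the list, and 0 lower (0.211% and 0.398% of all tested genes). Of the differences 13 were positive (median 0.32, all tested genes 0.02). These include H19 and Peg3, which were at most 0.866 and 0.656 FPKM in wild-type libraries. Both passed the filter on low values only through the homozygous libraries. Mest, a growth-related hydrolase gene, had 187, 28.3, 182 and 11.2 FPKM in homozygous and 12.6, 6.89, 23.3 and 5.39 FPKM in wild-type cells (log2 difference 2.38, SE 0.23, adjusted p = 0.032). Its gLmna-1 libraries were the higher ones in all 4 mice, and the gLmna-2 library of homozygous mouse 2 fell inside the wild-type range. Peg10, a gene derived from a retrotransposon, had 6.85, 5.58, 8.59 and 6.11 against 2.71, 1.83, 3.54 and 2.47 FPKM (log2 difference 1.10, SE 0.13, adjusted p = 0.044), without overlap. The imprinted genes Meg3 (79.98 ± 0.3904 against 38.4 ± 9.99 FPKM, log2 difference 1.06, adjusted p = 0.059) and Plagl1 (15.9 ± 2.33 against 6.14 ± 2.48 FPKM, log2 difference 1.30, adjusted p = 0.072) were higher in all 4 libraries but not called. Gnas and Snrpn differed by 0.02 and 0.01.

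S100a7a, an S100 protein gene that lies within 5 Mb of Lmna, had 10.6, 24.2, 16.1 and 160.2 FPKM in homozygous and 4.35, 5.98, 6.54 and 8.09 FPKM in wild-type cells (log2 difference 2.07, SE 0.60, adjusted p = 0.17). All 4 homozygous libraries lay above all wild-type ones. Without the gLmna-2 library of homozygous mouse 2, its highest, the log2 difference was 1.27, and the same mouse had 124 FPKM with gMock.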
